A study of Mus musculus and Homo sapiens with 24 samples.

Results

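Genomic imprinting is the marking of a gene, during egg or sperm formation, so that only the copy from one parent is transcribed. The marks are mostly DNA methylation at imprinting control regions, which zinc-finger proteins such as ZFP57 protect in the embryo, and TET enzymes oxidize 5-methylcytosine. Many imprinted genes are active in the fetus and placenta and quiet in adult tissue, and several of them set growth through the insulin-like growth factor and Notch pathways. The counts used here did not separate the parental alleles, so they give the total RNA of each gene and not its imprinting.

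The values below are of 10 imprinted genes in K-562, a human line derived from chronic myeloid leukaemia that carries erythroid genes and that the labels call lymphoblast. The 10 genes, of 58721 human genes counted, were *DLK1*, *MEG3*, *H19*, *IGF2*, *PEG3*, *PEG10*, *MEST*, *PLAGL1*, *ZDBF2* and *CDKN1C*. They were chosen from their read counts across the same 12 K-562 libraries that are described here, so their values and fold changes are a description and carry no test. The study asked how TET2, an enzyme that oxidizes 5-methylcytosine in DNA and RNA, and MBD6, a protein with a methyl-CpG-binding domain, act in leukaemia cells. Poly(A) RNA was sequenced from wild-type (WT) K-562 or *TET2*-knockout (KO) K-562, each carrying a lentiviral short hairpin against *MBD6* (shMBD6) or a non-targeting one (shControl), with 3 libraries in each of the 4 groups and puromycin in the medium of the transduced lines. The knockout cells were obtained as an existing line and whether they were 1 clone is not given in the sources used here, so a difference between WT and KO cannot be told apart from a difference between the lines, and a single *MBD6* hairpin was used. The legends of the study call its genome-wide samples biological replicates, and no label says whether the 3 libraries of a group came from separate cultures, so p-values measure the spread between these libraries.

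The 12 libraries held 27625013 to 39877202 counts in genes. Scaled to library size, *MBD6* fell with the hairpin to 0.46-fold in WT (log2 -1.12, SE 0.0544) and to 0.56-fold in KO (-0.84, SE 0.0539), whereas scaled to the ERCC spike-in RNA it stood at 0.02 (SE 0.0620) in WT and -0.66 (SE 0.0617) in KO. *TET2* was at 28.4 to 33.6 counts scaled to library size (CPM, the count of a gene per 1e6 counts of the library) in WT and 32.7 to 34.1 CPM in KO libraries with shControl, so the mRNA level did not check the label, and KO below means the libraries labelled so. The summed level of 10 erythroid genes of K-562 was 2593 to 2688 CPM in WT with shControl, 3410 to 3730 CPM in WT with shMBD6 and 1445 to 1516 CPM in the 6 KO libraries. The fetal globin gene *HBG2* fell by 1.70 on the log2 scale in KO with shControl. The part of the erythroid genes in the values below was not tested, and in these bulk libraries fewer cells with a transcript cannot be told apart from less of it per cell.

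Of the 10 genes, 8 passed the filter on low counts, of 17936 genes that did. *IGF2*, the fetal growth factor gene on chromosome 11 (hg38 chr11:2129112-2158391, minus strand), had a count of 0 in all 12 libraries. The genes that overlap it on either strand were also at 0. Reads that fit more than 1 gene were not counted, and *INS-IGF2* overlaps *IGF2* on the same strand. The count of 0 therefore sets no upper limit on the level of *IGF2*. *PEG3*, a paternally expressed zinc-finger gene (chr19:56810077-56840728, minus strand), had 38 counts over the 12 libraries, between 0 and 8 in each, and was not tested. For a gene whose reads fit no other gene, a group count of 0 allows up to 3 counts, or 0.0312 CPM in WT with shControl.

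Per kilobase of exon, *DLK1* had the highest mean level of the 10 genes in every group and *PLAGL1* the one after it. *DLK1* lay between 19.8 and 42.0 CPM per kb and *PLAGL1* between 6.23 and 8.46 CPM per kb. *CDKN1C* came next at 0.702 to 0.990 CPM per kb, except in WT with shMBD6, where *H19* at 1.62 CPM per kb was above it at 0.857 CPM per kb and the libraries did not overlap. *ZDBF2* stood at 0.478 and 0.448 CPM per kb in the 2 WT groups, above *MEST*, *MEG3*, *PEG3* and *PEG10*, and at 0.0358 and 0.0622 CPM per kb in the 2 KO groups, below *PEG10* at 0.106 and 0.105 CPM per kb. The libraries of *ZDBF2* and *PEG10* were separate in KO with shControl and overlapped in KO with shMBD6. In both KO groups the libraries of *ZDBF2* and *MEST* overlapped, as did those of *MEST* and *PEG10*. The group means of *MEG3* were at or below 0.0366 CPM per kb and those of *PEG3* at or below 0.0147 CPM per kb. The lengths were those of all annotated exons of a gene together, 23224 bases for *MEG3* and 6689 bases for *PEG10*. The order depends on them. Without this division the KO mean with shControl was 0.851 CPM for *MEG3* and 0.708 CPM for *PEG10*, and their libraries overlapped.

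**Figure D1:**
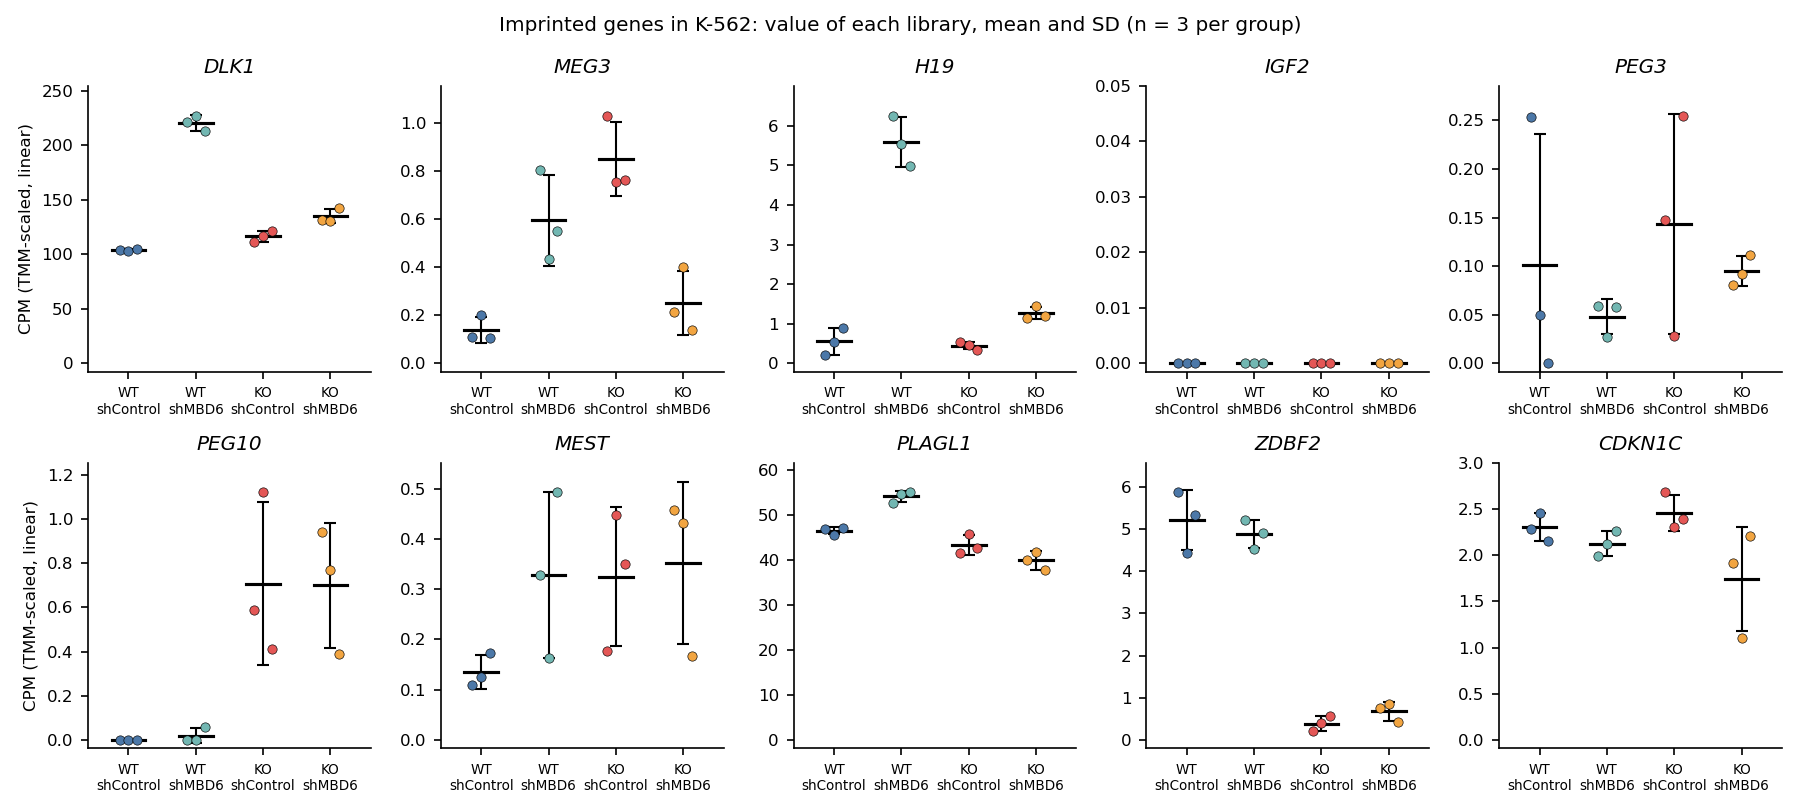
Level of each imprinted gene in CPM (linear axes from 0, each gene on its own scale) in the 12 K-562 libraries, with the mean and SD of the 3 libraries of a group. *ZDBF2* lay at 4.44 CPM or above in every WT library and at 0.862 CPM or below in every KO library, and *PEG10* had counts in 1 of 6 WT libraries and in all 6 KO libraries.

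*DLK1* encodes a membrane protein related to the Notch ligands, and *MEG3* is a non-coding RNA expressed from the maternal copy 41.2 kb downstream of *DLK1* on chromosome 14 (hg38, *DLK1* at chr14:100725705-100738224 and *MEG3* at chr14:100779410-100861031, both plus strand). In WT cells with shControl the 3 libraries held *DLK1* at 104, 103 and 105 CPM, and in WT cells with shMBD6 at 221, 227 and 213 CPM. In KO cells the values were 111, 117 and 121 CPM with shControl and 132, 130.3 and 142 CPM with shMBD6. WT cells with shMBD6 stood above all other libraries, and no 2 of the 4 groups overlapped. With the hairpin *DLK1* was 2.13-fold higher in WT (log2 fold change 1.09, SE 0.0414) and 1.16-fold higher in KO (log2 0.21, SE 0.0413), so that the hairpin difference was smaller in KO by 0.88 on the log2 scale (interaction term -0.88, SE 0.0583). KO against WT was 0.17 (SE 0.0418) with shControl and -0.71 (SE 0.0407) with shMBD6.

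*MEG3* was near the limit of detection, with 3 to 35 counts a library, and moved in opposite directions with the hairpin in the 2 lines. Its counts were 3, 8 and 3 in WT with shControl, 27, 16 and 19 in WT with shMBD6, 35, 27 and 24 in KO with shControl, and 8, 13 and 5 in KO with shMBD6. The mean level was 0.138 ± 0.0544 CPM (SD, n = 3) and 0.596 ± 0.189 CPM in WT, and 0.851 ± 0.156 CPM and 0.252 ± 0.134 CPM in KO, in the same order of hairpins. The fitted log2 fold change with the hairpin was 2.02 (SE 0.505) in WT and -1.76 (SE 0.447) in KO, and no library of a shMBD6 group fell inside the range of its control group. KO against WT with shMBD6, -1.25 (SE 0.458), kept its sign in every alternative but no longer passed the threshold when any of 4 single libraries was left out (-0.98 without WT shMBD6 replicate 1, -1.30 without WT shMBD6 replicate 3, -1.15 without KO shMBD6 replicate 1 and -0.96 without KO shMBD6 replicate 3).

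*H19* is a non-coding RNA from the maternal copy on chromosome 11 (hg38 chr11:1995166-2004552, minus strand), next to *IGF2*. Its level was 0.217, 0.552 and 0.905 CPM in WT with shControl and 6.25, 5.54 and 4.99 CPM in WT with shMBD6. In KO it was 0.530, 0.477 and 0.350 CPM with shControl and 1.16, 1.45 and 1.20 CPM with shMBD6. Both hairpin groups lay above their controls without overlap, and the 2 control groups overlapped. The hairpin difference was 9.92-fold in WT (log2 3.31, SE 0.278) and 2.77-fold in KO (log2 1.47, SE 0.316), with an interaction term of -1.84 (SE 0.440). KO against WT was -0.30 (SE 0.359) with shControl and -2.14 (SE 0.245) with shMBD6. *DLK1* and *H19* were thus both highest in WT with shMBD6, and across the 12 libraries their levels correlated with r = 0.93, which describes points that share their groups.

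The promoter of *DLK1* is shown because the gene had the highest level of the 10 and moved with both the hairpin and the line. The sequence is from the hg38 genome, 250 bases before to 50 bases after the start of the gene's canonical transcript, 5′ to 3′ on the gene's strand, and capitals mark each CG, the dinucleotide in which DNA cytosines are mostly methylated in mammals. The window chr14:100726642-100726941 (plus strand) held 45 CG, more than 94.5% of the promoters of 17831 tested genes, whose median was 24.

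DLK1: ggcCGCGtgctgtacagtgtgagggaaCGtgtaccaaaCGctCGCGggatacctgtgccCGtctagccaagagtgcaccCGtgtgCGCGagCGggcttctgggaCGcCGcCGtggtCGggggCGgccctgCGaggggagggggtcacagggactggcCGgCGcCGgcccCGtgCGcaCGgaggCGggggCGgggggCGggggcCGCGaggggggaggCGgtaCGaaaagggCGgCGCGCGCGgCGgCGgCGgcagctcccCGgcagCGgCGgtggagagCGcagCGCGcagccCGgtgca

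*PLAGL1* encodes a zinc-finger transcription factor that restrains the cell cycle and is expressed from the paternal copy on chromosome 6 (hg38 chr6:143940300-144064599, minus strand). It was well covered, with 1293 to 2018 counts a library, and varied little. Its level was 46.8, 45.6 and 47.1 CPM in WT with shControl and 52.8, 54.8 and 55.1 CPM in WT with shMBD6. In KO it was 41.6, 45.9 and 42.8 CPM with shControl and 40.1, 41.9 and 37.8 CPM with shMBD6. The log2 fold change of KO against WT was -0.10 (SE 0.0529) with shControl and -0.44 (SE 0.0524) with shMBD6. With the hairpin the difference was 0.22 (SE 0.0523) in WT and -0.12 (SE 0.0530) in KO. *HYMAI*, a non-coding RNA from within the same gene and strand, stood at group means of 0.386 to 0.581 CPM, and none of its contrasts passed the test.

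*ZDBF2*, a paternally expressed zinc-finger gene on chromosome 2 (hg38 chr2:206274663-206314427, plus strand), differed between the lines in all 12 libraries. It stood at 5.87, 4.44 and 5.32 CPM in WT with shControl and 5.21, 4.53 and 4.90 CPM in WT with shMBD6. In KO it stood at 0.206, 0.392 and 0.573 CPM with shControl and 0.754, 0.862 and 0.418 CPM with shMBD6. All 6 WT libraries lay above all 6 KO libraries, by 13.3-fold with shControl (log2 -3.73, SE 0.266) and 7.20-fold with shMBD6 (log2 -2.85, SE 0.242). The hairpin groups overlapped in both lines (log2 -0.09, SE 0.196 in WT and 0.80, SE 0.332 in KO).

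*CMKLR2-AS*, a paternally expressed non-coding RNA whose annotated end lies 9.34 kb from *ZDBF2*, was low in the same libraries. Its counts were 25, 9 and 18 in WT with shControl and 24, 27 and 24 in WT with shMBD6, against 2, 0 and 2 in KO with shControl and 0, 1 and 2 in KO with shMBD6. KO against WT with shControl passed the test (log2 -3.72, SE 0.763, edgeR adjusted p = 0.000433). With shMBD6 the KO group held 3 counts against 75, so WT was 25.1-fold higher, with an exact 95% counting interval of 8.28 to 125. Within 500 kb of *ZDBF2*, 6 genes were tested. In KO with shControl 1 of them rose (*FASTKD2*, a mitochondrial RNA gene, log2 0.25, SE 0.0876) and 2 fell, *CMKLR2-AS* and *NDUFS1* (-0.09, SE 0.0358). Of all tested genes 22.2% rose and 20.7% fell. Scaled to the spike-ins described below 5 of the neighbours rose and 1 fell, against 89.0% and 1.24% of all tested genes.

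The *ZDBF2* promoter is shown as that of the gene that was lower in KO under both hairpins. The window chr2:206274413-206274712 (plus strand) held 18 CG, more than 35.4% of tested promoters.

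ZDBF2: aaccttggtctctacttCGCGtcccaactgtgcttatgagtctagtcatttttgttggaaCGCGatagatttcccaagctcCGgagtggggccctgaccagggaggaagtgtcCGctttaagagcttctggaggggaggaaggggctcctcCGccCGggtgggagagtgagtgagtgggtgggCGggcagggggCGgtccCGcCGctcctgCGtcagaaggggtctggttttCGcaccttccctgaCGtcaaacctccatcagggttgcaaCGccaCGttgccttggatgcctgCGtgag

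*PEG10*, a paternally expressed gene derived from a retrotransposon and required in the placenta, had the opposite split (hg38 chr7:94656325-94669695, plus strand). Its counts were 0, 0 and 0 in WT with shControl and 0, 0 and 2 in WT with shMBD6. In KO they were 20, 40 and 13 with shControl and 35, 25 and 14 with shMBD6, or 0.708 ± 0.368 CPM and 0.701 ± 0.282 CPM (SD, n = 3). KO was at least 23.2-fold higher than WT with shControl, taking 3 counts over the WT group as the floor. With shMBD6 the ratio was 36.8 (exact 95% interval 9.84 to 310, for counting error only). The 2 KO groups overlapped, and the hairpin difference in KO was -0.02 (SE 0.503).

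*COL1A2*, a collagen gene of connective tissue 225 kb from *PEG10*, held 0, 1 and 0 counts in WT with shControl and 3, 0 and 4 in WT with shMBD6, against 68, 94 and 58 in KO with shControl and 24, 13 and 18 in KO with shMBD6. The ratio of KO to WT with shControl was 209, with a counting interval of 37.2 to 8311. *COL1A2* is also one of 4 stromal genes used as markers, 3 of which passed the filter and whose summed level was 776 to 780 CPM in WT and 1320 to 1365 CPM in KO with shControl, mostly from *VIM*. *VIM* rose in KO with shControl (log2 0.79, SE 0.0243) and with shMBD6 (0.86, SE 0.0242). *COL1A1*, the other marker that passed the filter, did not pass the test with shControl (-0.38, SE 0.238) and fell with shMBD6 (-0.91, SE 0.147). The part of these genes in the *PEG10* values was not tested. *CASD1*, a sialic acid acetyltransferase gene 99.3 kb from *PEG10*, rose in KO with shControl (log2 0.79, SE 0.113, edgeR adjusted p = 7.31e-06) and with shMBD6 (0.44, SE 0.118). With the hairpin it fell in KO (-0.71, SE 0.112) and, scaled to library size alone, in WT (-0.36, SE 0.119), where spike-in scaling turned it to 0.78. *SGCE*, which starts 237 bases from *PEG10* on the other strand and is also imprinted, had 37 counts over the 12 libraries and was not tested.

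The letters TGCCGC, the core of the sequence that ZFP57 is known to bind, were searched on both strands of the same 300-base window. They were in the windows of 3 of the 10 genes, *DLK1*, *MEST* and *PLAGL1*, and in 23.4% of all tested promoters. The GATA core AGATAA was in none of the 10 and in 6.99% of tested promoters, and the TATA core TATAAA was in 1, *CDKN1C*, and in 7.91%. For *H19* and *MEG3* the annotated canonical transcript starts upstream of other annotated starts, and their windows were not printed.

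**Figure D2:**
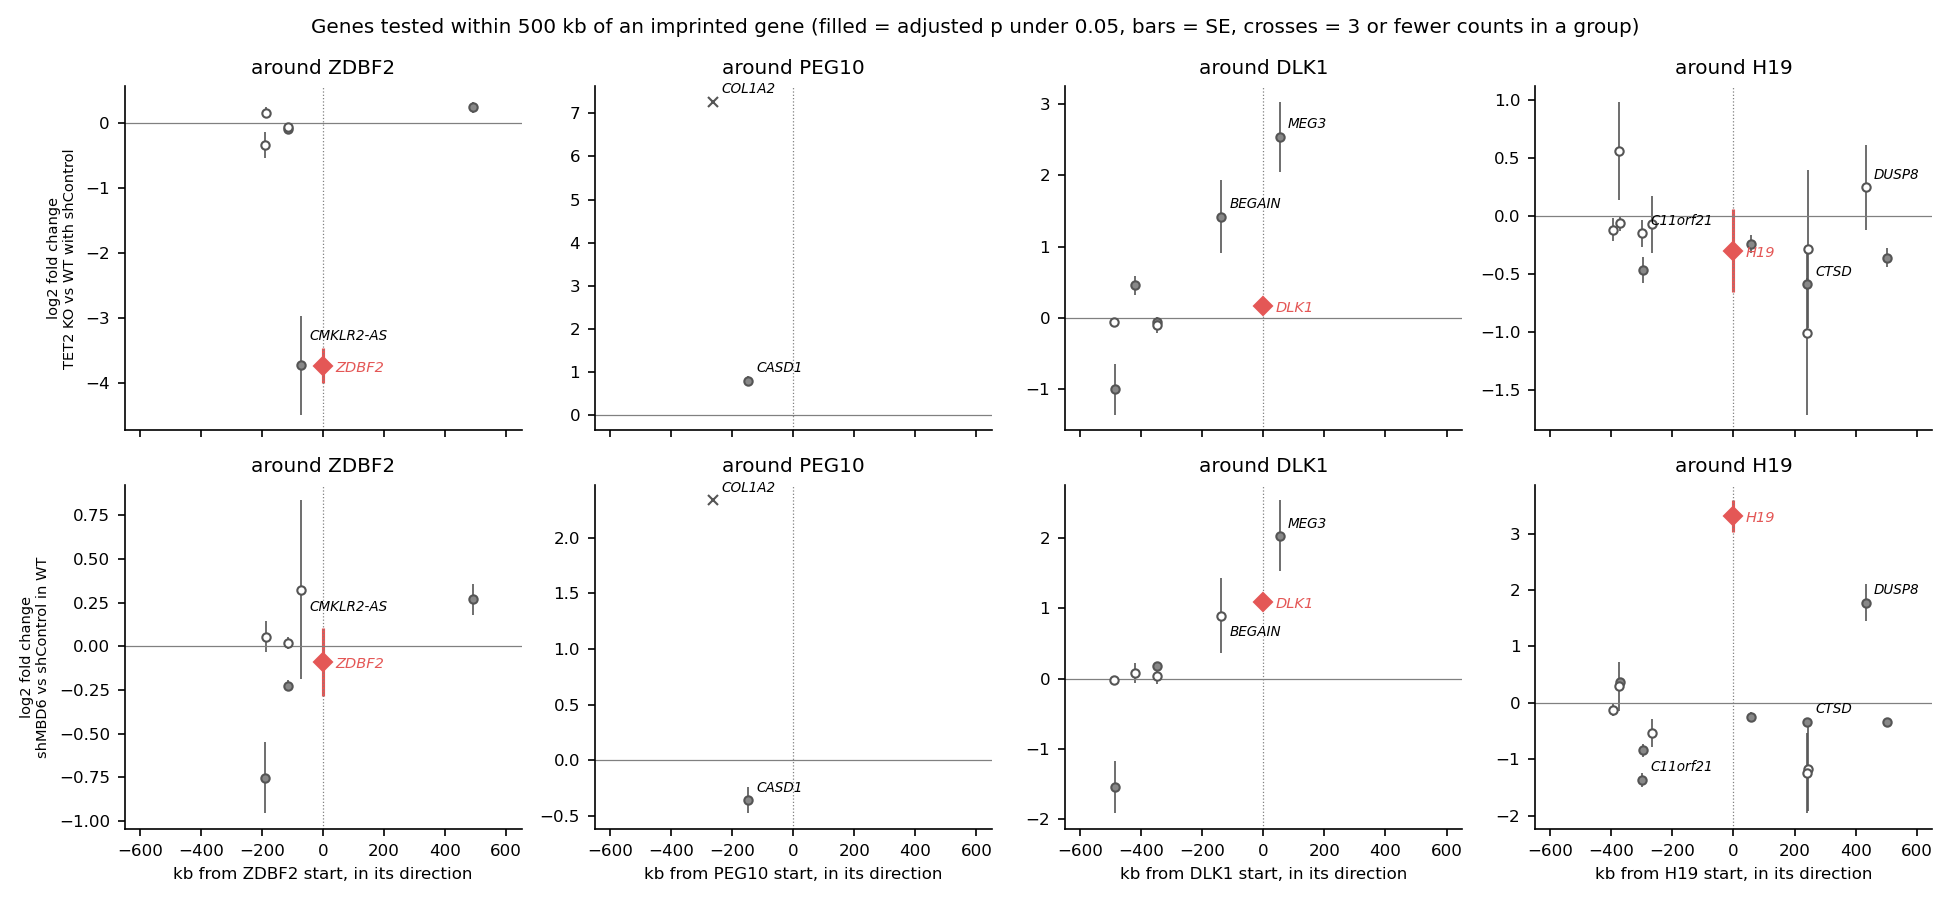
log2 fold change (edgeR, bars = SE) of genes tested within 500 kb of *ZDBF2*, *PEG10*, *DLK1* and *H19*, against the distance in kb of their starts from that gene's start in its direction of transcription, for KO against WT with shControl (top) and shMBD6 against shControl in WT (bottom). Red diamonds mark the imprinted gene, filled points passed an adjusted p of 0.05, crosses mark contrasts with 3 or fewer counts in a group, and in the top row *CMKLR2-AS* (-3.72) lay beside *ZDBF2* (-3.73).

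*CDKN1C*, a cell-cycle inhibitor expressed from the maternal copy (hg38 chr11:2883213-2885775, minus strand), and *MEST*, a paternally expressed hydrolase-fold gene of mesoderm (chr7:130486171-130506465, plus strand), passed the threshold in none of the comparisons when scaled to library size. *CDKN1C* stood at 2.16 to 2.46 CPM in WT with shControl, 1.99 to 2.26 CPM in WT with shMBD6, 2.30 to 2.68 CPM in KO with shControl, and 1.91, 1.11 and 2.203 CPM in KO with shMBD6. With the hairpin in KO the 3 libraries lay below the 3 controls, and the groups of the other 3 comparisons overlapped. Its 4 fold changes lay between -0.49 (SE 0.211) and 0.09 (SE 0.208) on the log2 scale. *MEST* had 3 to 17 counts a library and group means of 0.136 to 0.352 CPM, with WT with shControl the lowest. The *MEST* log2 fold change was 1.24 (SE 0.629) in KO with shControl and 1.24 (SE 0.627) with the hairpin in WT, and 0.11 in each of the other 2 comparisons. The KO libraries lay above the WT libraries with shControl, and the groups overlapped in the other 3 comparisons. It overlaps *COPG2*, which had 18160 counts on the other strand, and whether reads were counted by strand is not given in the sources used here, so its reads may not all be its own.

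**Figure D3:**
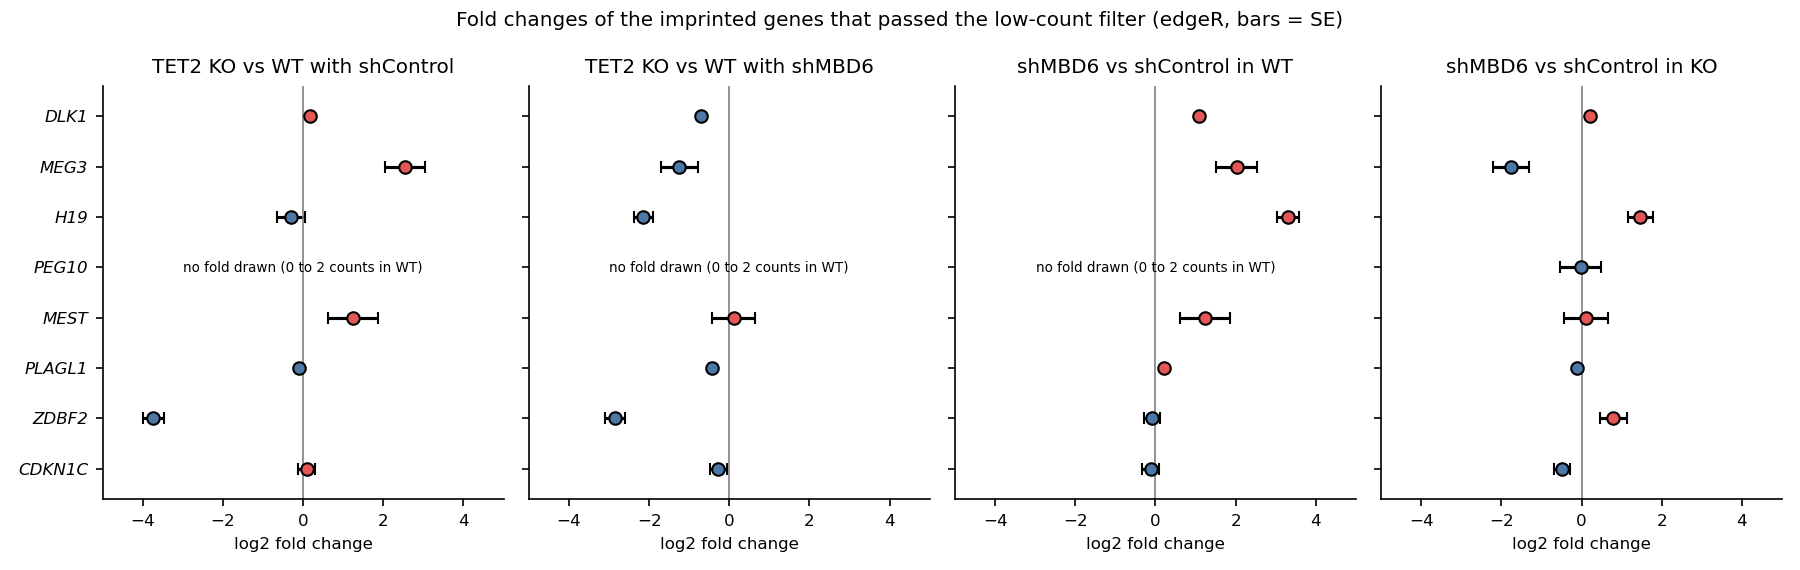
log2 fold change of the 8 imprinted genes that passed the low-count filter in the 4 comparisons (x axis, same range in each panel, bars = SE, red above 0 and blue below). *PEG10* is drawn only for the hairpin in KO (-0.02) because the WT groups held 0 and 2 counts, and *MEG3* lay at 2.02 in WT and -1.76 in KO with the hairpin.

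The comparisons share libraries and are therefore given side by side. Of the 8 genes tested, 3 were higher (*DLK1*, *MEG3*, *PEG10*) and 1 lower (*ZDBF2*) in KO against WT with shControl, where 22.2% of all tested genes passed higher and 20.7% lower at an edgeR adjusted p of 0.05. With shMBD6, 1 was higher and 5 lower, against 22.9% and 21.6%. With the hairpin in WT 4 were higher (*DLK1*, *MEG3*, *H19*, *PLAGL1*) and none lower, against 20.4% and 19.2%, and in KO 2 were higher (*DLK1*, *H19*) and 1 lower (*MEG3*), against 18.5% and 16.3%. For the interaction term, none was higher and 4 were lower (*DLK1*, *MEG3*, *H19*, *PLAGL1*), against 10.3% and 11.0%. Because these contrasts chose the genes, nothing is read from the counts. The median log2 fold change over the 8 genes was 0.13, -0.58, 1.17, 0.04 and -1.01 in the same order, where the median of all tested genes lay between -0.01 and 0.01. Without *PEG10*, whose fold changes depend on near-empty groups, the median was 0.09, -0.71, 1.09, 0.11 and -0.88.

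The values above are relative to the other genes of a library. Scaled to the ERCC spike-in RNA, which took 0.865% to 0.874% of counts in WT with shControl and 0.319% to 0.395% in the other 9 libraries, the median of all genes moved to 1.26 for KO against WT with shControl, 0.31 with shMBD6, 1.13 for the hairpin in WT and 0.18 in KO. On that scale 7 of the 8 genes were higher and 1 lower in KO with shControl, where 89.0% of all genes passed higher and 1.24% lower, and 1 was higher and 4 lower with shMBD6, against 54.1% and 5.84%. With the hairpin 7 were higher and 0 lower in WT, against 86.1% and 0.212%, and 3 were higher and 1 lower in KO, against 38.3% and 5.88%. For the interaction, 0 were higher and 6 lower, against 0.312% and 74.0%. *ZDBF2* stayed lower in KO at -2.48 with shControl and -2.55 with shMBD6, whereas *PLAGL1* turned from -0.10 to 1.16 and *H19* from -0.30 to 0.94 in KO with shControl. The hairpin difference of *ZDBF2* in WT turned from -0.09 to 1.05 and that of *CDKN1C* from -0.12 to 1.02, and the hairpin difference of *PLAGL1* in KO from -0.12 to 0.06.

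Of 56 other imprinted genes, 32 were tested and 6 were at 0 in all libraries. In KO with shControl 9 rose and 9 fell, where 22.2% of all tested genes rose and 20.7% fell, and with shMBD6 12 rose and 8 fell, against 22.9% and 21.6%. With the hairpin 7 rose and 6 fell in WT, against 20.4% and 19.2%, and 9 rose and 7 fell in KO, against 18.5% and 16.3%. Scaled to ERCC, 28 rose and 2 fell in KO with shControl (21 and 4 with shMBD6), and the hairpin gave 30 and 0 in WT and 14 and 4 in KO. The shares of all genes on that scale are those of the paragraph above. Without spike-in scaling the median log2 fold changes over the 32 genes were 0.03, 0.08, 0.04 and 0.13 in that order of comparisons.

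Of 15 paternally expressed genes tested, 6 rose and 3 fell in KO with shControl, where 22.2% of all tested genes rose and 20.7% fell. Of the 6, *SNHG14*, *NPAP1*, *NDN* and *MKRN3* lie in the Prader-Willi region of chromosome 15. *SNHG14*, the host transcript of small nucleolar RNAs, held 0.125 to 0.254 CPM in WT with shControl. In KO it held 2.61 to 2.96 CPM with shControl (log2 3.83, SE 0.270, edgeR adjusted p = 2.39e-10) and 4.31 to 5.61 CPM with shMBD6. It overlaps *UBE3A* on the other strand, and as for *MEST* its reads may not all be its own. *NPAP1*, a gene of the same region, had a count of 0 in WT with shControl and 10 to 13 in KO, at least 11.4-fold higher, and *NDN* rose by 1.44 (SE 0.280). *MKRN3*, named after its values were seen, rose by 0.47 (SE 0.0735). *GLIS3*, a zinc-finger gene, rose in KO (2.10, SE 0.226) and with the hairpin in both lines (2.56, SE 0.217 in WT and 1.95, SE 0.162 in KO). *SNRPN*, a splicing protein gene of the Prader-Willi region, rose in KO with shMBD6 (3.17, SE 0.636) and stood at 1.26 (SE 0.595) with shControl, where it did not pass the test. *SNURF* lies within the span of *SNRPN* on the same strand, and reads that fit both genes were not counted.

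Of 17 genes expressed from the maternal copy or by isoform, 3 rose and 6 fell in KO with shControl, where 22.2% of all tested genes rose and 20.7% fell, and the difference between the maternal and the paternal list was not tested. *TP73*, a transcription factor gene, fell the most of the 17. It stood at 7.46 to 9.67 CPM in WT and 0.617 to 1.11 CPM in KO with shControl (log2 -3.46, SE 0.203, edgeR adjusted p = 1.36e-11). *PHLDA2*, a growth-restraining placental gene 42.5 kb from *CDKN1C*, rose in KO with shControl (1.40, SE 0.291) and with the hairpin in WT (1.14, SE 0.294). *UBE3A*, a ubiquitin ligase gene of the Prader-Willi region, rose in KO by 0.80 (SE 0.0439) and with the hairpin in WT by 0.39 (SE 0.0441). *TFPI2*, a protease inhibitor gene of the *PEG10* cluster, rose with the hairpin in KO by 2.45 (SE 0.558).

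**Figure D4:**
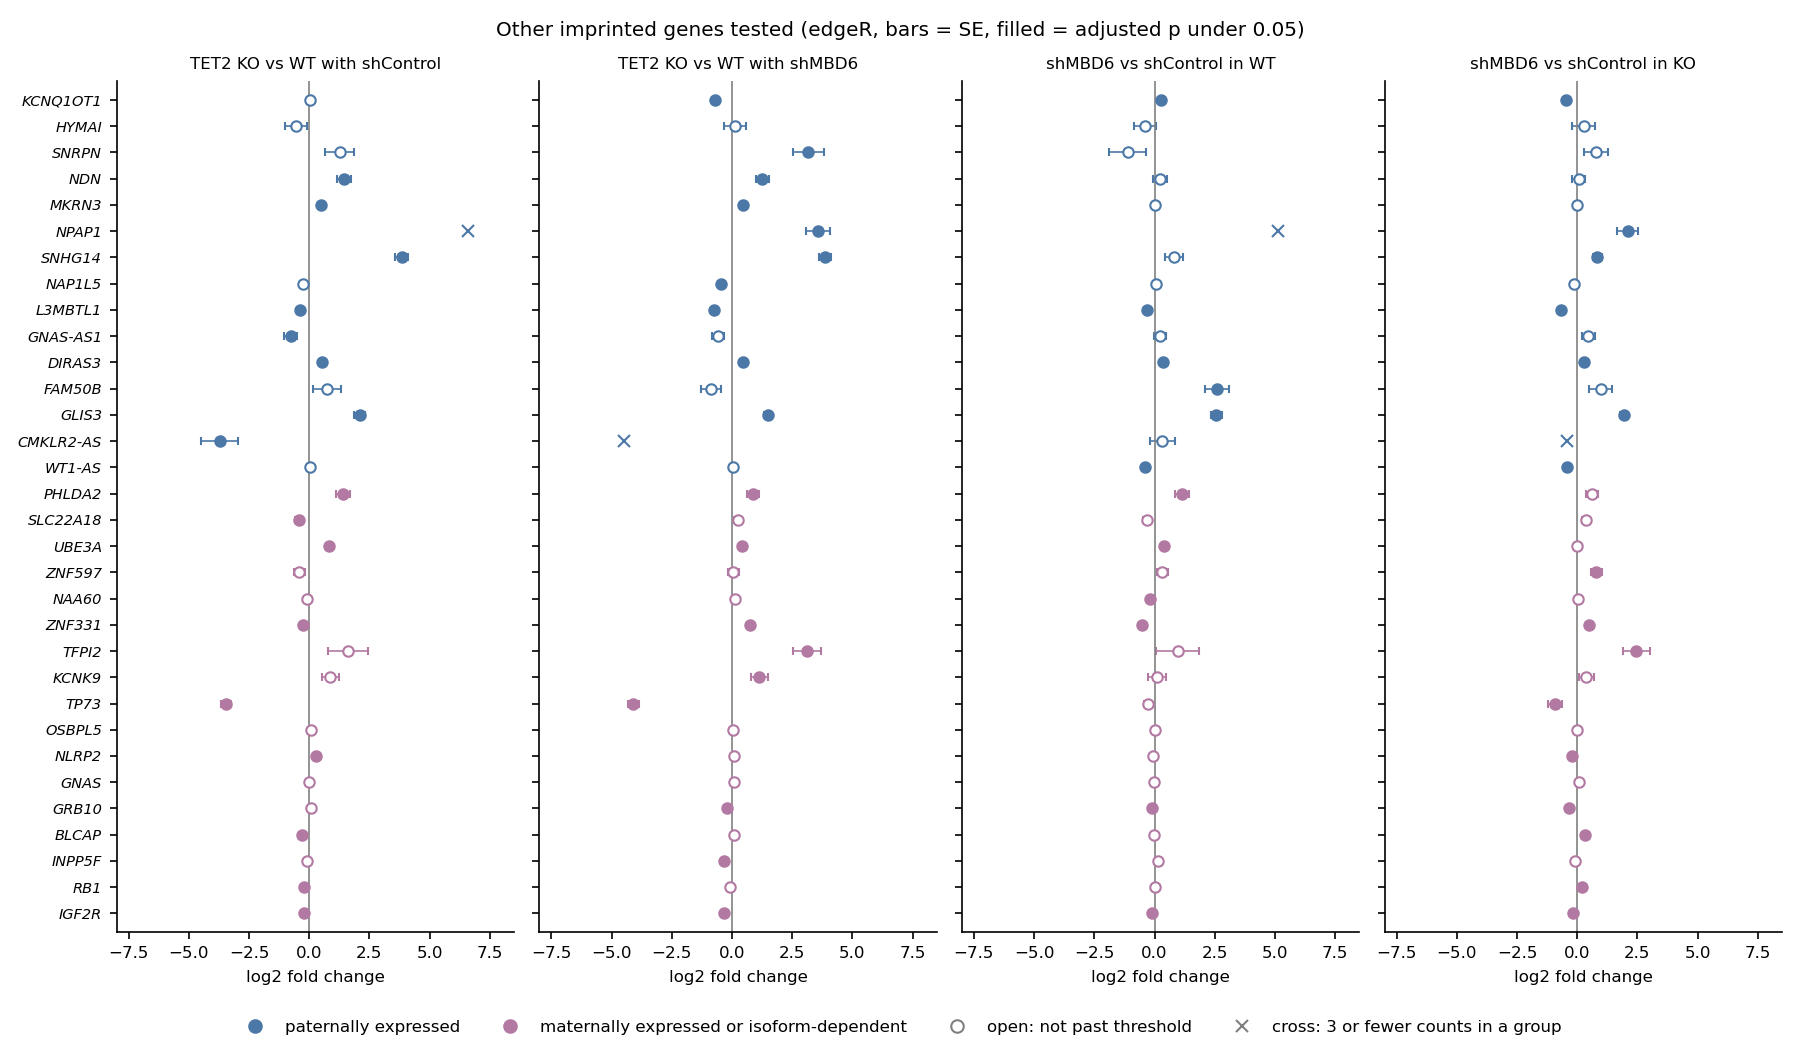
log2 fold change (x axis, bars = SE) of the 32 other imprinted genes that passed the low-count filter, in 4 comparisons, with paternally expressed genes in blue and genes expressed from the maternal copy or by isoform in purple. Filled points passed an edgeR adjusted p of 0.05, crosses mark contrasts with 3 or fewer counts in a group, and *CMKLR2-AS* (-3.72) and *TP73* (-3.46) were the lowest and *SNHG14* (3.83) the highest point with an error bar in KO with shControl.

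Of 20 genes that place or guard imprints, 18 were tested. In KO with shControl 3 rose and 2 fell, where 22.2% of all tested genes rose and 20.7% fell, and with shMBD6 2 rose and 7 fell, against 22.9% and 21.6%. Scaled to ERCC, 17 rose and 0 fell with shControl, against 89.0% and 1.24% of all tested genes. With shMBD6 12 rose and 4 fell on that scale, against 54.1% and 5.84%. *ZFP57*, the protein gene named above, held 11, 14 and 16 counts in WT and 3, 4 and 4 in KO with shControl (log2 -1.95, SE 0.594, edgeR adjusted p = 0.0112). Scaled to ERCC it was not called lower in this comparison. *CTCFL*, a germline relative of the insulator protein CTCF, rose with the hairpin in both lines, from 209 to 217 CPM up to 406 to 408 CPM in WT (log2 0.94, SE 0.0288) and by 0.83 (SE 0.0287) in KO. *TET1* rose with the hairpin in WT (0.47, SE 0.05) and fell in KO (-0.34, SE 0.0508).

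A list of 18 genes held partners of the *IGF2*, *DLK1* and *H19* products. Some belong to the insulin-like growth factor and Notch pathways, and others, such as *IGF2BP1*, *LIN28B* and *HMGA2*, do not. Of the 18 genes, 16 were tested. In KO with shControl 7 rose and 2 fell, against 22.2% and 20.7% of all tested genes. With the hairpin 8 rose and 2 fell in WT, against 20.4% and 19.2%, and 6 rose and 4 fell in KO, against 18.5% and 16.3%. Scaled to ERCC these were 15 and 0, 16 and 0, and 7 and 2. The shares of all tested genes on that scale were 89.0% and 1.24%, 86.1% and 0.212%, and 38.3% and 5.88%. *IGF1R*, the receptor gene, rose in KO by 0.84 (SE 0.0989) with shControl and by 0.50 (SE 0.0957) with shMBD6. *INSR*, the insulin receptor gene, fell in KO with shMBD6 (-1.05, SE 0.156). *IGFBP2*, which encodes a protein that binds the growth factors, rose in KO with shMBD6 (2.40, SE 0.453) and with the hairpin in both lines (1.70, SE 0.669 in WT and 1.90, SE 0.435 in KO). *IRS1*, an adaptor of the receptors, rose in KO with shControl (1.86, SE 0.354) and fell with the hairpin in KO (-2.41, SE 0.368). *NOTCH2*, a receptor of the pathway to which the DLK1 protein is related, rose with the hairpin by 0.86 (SE 0.235) in WT and 0.87 (SE 0.244) in KO.

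Around *H19*, 12 genes were tested within 500 kb. With the hairpin in WT, 2 of them rose and 5 fell, where 20.4% of all tested genes rose and 19.2% fell. Scaled to ERCC these were 9 and 0, against 86.1% and 0.212%. Without that scaling *DUSP8*, a phosphatase gene, rose (1.78, SE 0.333) and *C11orf21* fell (-1.36, SE 0.125). *CTSD*, the cathepsin D gene, fell in KO with shControl (-0.59, SE 0.0498), a sign that ERCC scaling turned to 0.67. Around *DLK1* 7 genes were tested. In KO with shControl 3 of them, *MEG3* among them, rose and 2 fell, where 22.2% of all tested genes rose and 20.7% fell. Scaled to ERCC these were 6 and 0, against 89.0% and 1.24%. Without that scaling *BEGAIN*, 138 kb upstream, rose in KO with shControl (1.42, SE 0.517, edgeR adjusted p = 0.0316), from 0.272 to 0.763 CPM.

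The genes whose log2 level followed each imprinted gene most closely over the 12 libraries were taken by Pearson's r, and for *MEG3*, *PLAGL1* and *CDKN1C* 1 of the 2 taken had no symbol and is not named. For *DLK1* they were *STYX* (r = 0.99) and *GFPT1* (0.98), for *H19* *PJA2* (0.97) and *ZNF276* (0.96), for *ZDBF2* *ZNF875* (0.99) and *ST3GAL2* (0.99), and for *PEG10* *EPB41L4A-AS1* (0.98) and *GLCE* (0.98). Of genes with a symbol, *MEG3* was followed by *ANP32E* (0.92), after an unnamed gene at 0.94, *PLAGL1* by *ADAM9* (0.97), after an unnamed gene also at 0.97, *CDKN1C* by *NALF1* (0.93), and *MEST* by *CHN1* (0.94) and *AMACR* (0.87). The 12 points fall into 4 groups, so these values describe which genes had the same order of groups. Between members, *PEG10* and *ZDBF2* had r = -0.92.

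Mouse orthologues were measured in libraries that played no part in the choice of the genes, Lin-c-Kit+ (LK) bone marrow progenitors of mice of 6 to 8 weeks of age. In *Tet2* WT and *Tet2* KO LK cells (n = 3 each), 4 of the 10 orthologues passed the low-count filter, and 0 passed the edgeR test, where 4.14% of all genes passed higher and 2.31% lower. Of the 4, 2 had an unadjusted p under 0.05, and DESeq2 also called 0. *Dlk1* stood at 0.226, 0.134 and 0.0583 CPM in WT and 0.369, 0.306 and 0.741 CPM in KO, without overlap (log2 1.77, SE 0.554, edgeR adjusted p = 0.101). *Cdkn1c* stood at 0.784 to 0.940 CPM in WT and 1.29 to 1.73 CPM in KO, without overlap (0.71, SE 0.216, edgeR adjusted p = 0.0909). *Plagl1* stood at 0.157, 0.201 and 0.350 CPM in WT and 0.413, 0.396 and 0.500 CPM in KO, also without overlap (0.87, SE 0.381, adjusted p = 0.220). *Zdbf2* had 0 to 2 counts in each of these 6 libraries, so the split of *ZDBF2* seen in K-562 was not detectable there. *Peg10* was detected in both genotypes and its mean was lower in KO, again without overlap. It stood at 1.51 to 1.60 CPM in WT and 0.828 to 1.45 CPM in KO (-0.43, SE 0.235, edgeR adjusted p = 0.325). A lack of overlap between groups of 3 libraries is not a test, and none of the 4 genes passed one.

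In LK cells given an antisense oligonucleotide (ASO) against RNA of the IAP retroelement or a control ASO (n = 3 each, with no genotype in the labels), *Peg10* rose and *Cdkn1c* did not pass the test. *Peg10* stood at 4.19, 5.30 and 4.68 CPM with the control and 7.61, 8.54 and 6.21 CPM with the IAP ASO (log2 0.65, SE 0.128, edgeR adjusted p = 0.000127). It was 1 of 2 orthologues tested, 1 higher and 0 lower, where 19.9% of all genes passed higher and 19.7% lower. The same fit gave *Cdkn1c* -0.20 (SE 0.619, adjusted p = 0.839).

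**Figure D5:**
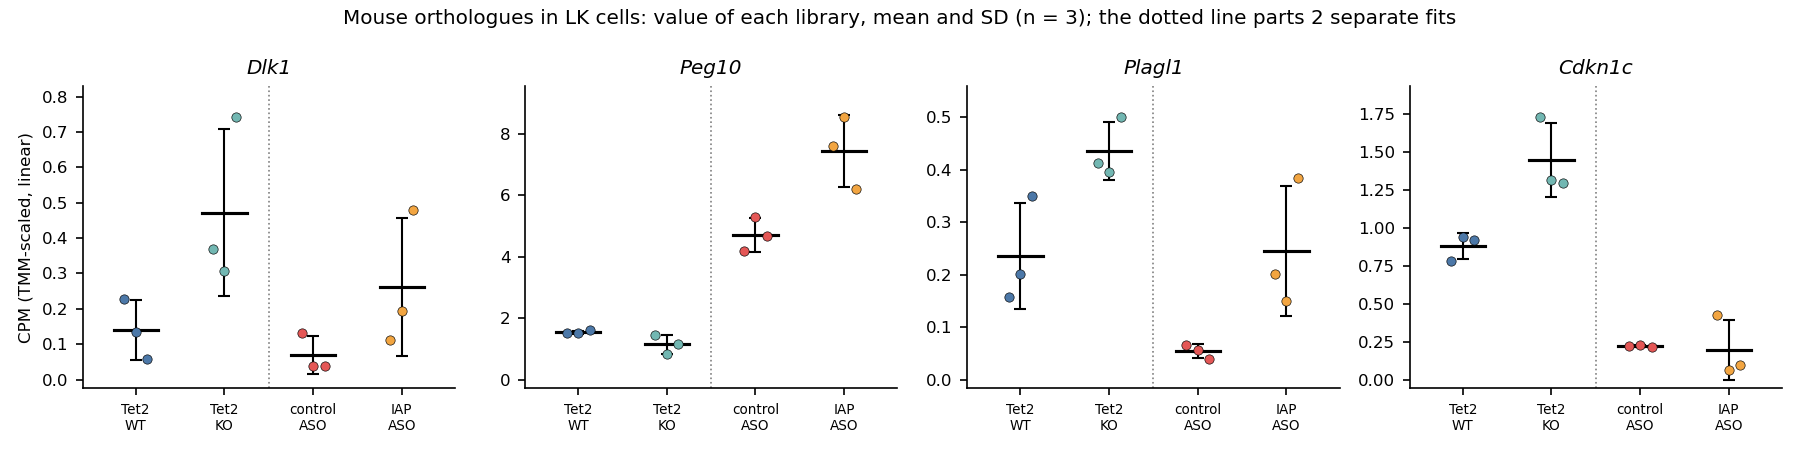
Level in CPM (linear axes from 0) of 4 mouse orthologues in the 12 LK libraries, with the mean and SD of the 3 libraries of a group. The dotted line separates *Tet2* WT and KO from the control and IAP ASO, which were scaled apart, and the 3 *Peg10* values with the IAP ASO (6.21 to 8.54 CPM) lay above the 3 controls (4.19 to 5.30 CPM).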

How the data were processed

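RNA was sequenced from 12 K-562 libraries (4 groups of 3, poly(A) RNA) and 12 mouse LK libraries (4 groups of 3, total RNA). Samples were grouped by the labels alone. Per the labels and the study's methods, the authors trimmed reads with Trimmomatic 0.39, aligned them with HISAT2 2.2.1 to hg38 or mm10 with ERCC sequences, and counted them per GENCODE gene with HTSeq 0.12.4, which drops reads that fit several genes. The deposited values are raw read counts per gene. Rows that name no gene were left out of gene totals in the K-562 files (10.4% to 13.8% of reads in no feature, 4.01% to 4.33% ambiguous and 6.04% to 6.43% not aligned uniquely), as were ERCC counts.

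The 12 K-562 libraries were fitted together with edgeR 4.0.16 (filterByExpr, TMM, quasi-likelihood test, Benjamini-Hochberg adjustment) under R 4.3.3, with genotype, hairpin and their interaction as contrasts, and the LK sets were fitted apart. A call is an adjusted p under 0.05. SE values were derived from the log2 fold change and its F statistic. CPM values were TMM-scaled, and correlations used log2 CPM with a prior count of 2. The depth of 27625013 to 39877202 counts per K-562 library sets the precision, so that 3 counts over a group of 3 is the floor for a group at 0, and intervals cover counting error only. The study's own method scaled DESeq2 to spike-ins where used. Here ERCC scaling, DESeq2 1.42.0 (test and size factors), no low-count filter, the replicate number as a block, the 6 libraries compared alone and leaving out each library were alternatives.

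Gene names, positions and exon lengths came from GENCODE v44 matched on the gene identifier (58207 of 58721 human identifiers), and promoters from hg38. The fits were tested on simulated counts. All members were described in full. From other lists, up to 4 genes per list and comparison past the threshold with the largest change were eligible, from neighbours within 500 kb up to 3 per gene, and for likeness 2 per gene. The members and all lists were chosen with earlier results of these data known. A few items, among them 1 promoter sequence, are not reported here.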

Additional observations from a re-analysis of the deposited data

Results flagged for a closer look

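The hairpin difference of 4 of the imprinted genes was not the same in the *TET2* WT and KO lines, by the interaction term of the edgeR fit over the 12 K-562 libraries. The genes were chosen on these libraries, so their terms are a description. The term was -0.88 for *DLK1*, -3.78 for *MEG3*, -1.84 for *H19* and -0.34 for *PLAGL1* on the log2 scale, and all 4 hairpin differences were lower in KO. Of these, *MEG3* alone had opposite signs on all 3 scalings (TMM, DESeq2 size factors and ERCC), from 2.02 in WT to -1.76 in KO, with at most 35 counts in a library.

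Of the 32 other imprinted genes tested, 6 had a hairpin difference that was not the same in both lines (3 terms above 0 and 3 below), where 10.3% of all tested genes passed above 0 and 11.0% below. These counts lay near the shares of all genes, so nothing about imprinted genes is read from them. The term was -0.73 for *KCNQ1OT1*, the non-coding RNA of the *CDKN1C* cluster, which rose with the hairpin in WT (0.25) and fell in KO (-0.48). It was -0.40 for *UBE3A* and -0.24 for *GRB10*. It was 1.02 for *ZNF331*, which fell with the hairpin in WT (-0.54) and rose in KO (0.47). It was 0.67 for *SLC22A18* and 0.36 for *BLCAP*. All these values are relative to the other genes. Scaled to ERCC, where the median term over all genes was -0.95, *SLC22A18* turned to -0.29, *BLCAP* to -0.59 and the WT value of *ZNF331* to 0.60.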

How the results depend on the processing

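Of the 8 tested imprinted genes chosen for description, no called fold change changed sign under any alternative run. With ERCC scaling the number of these genes past the threshold was 8 (4 with TMM) for KO against WT with shControl and 7 (4) for the hairpin in WT, and that of the other imprinted genes was 30 (18), 30 (13) and, for the interaction, 23 (6). The shift of the median of all genes given in the report follows the ERCC share of the libraries. Whether that share differed through RNA content or through the amount of spike-in added was not tested. For the hairpin in KO, leaving out 1 library gave 3 to 5 imprinted genes (3 with all), the most without KO shMBD6 replicate 3, where *CDKN1C* (log2 -0.69) and *ZDBF2* (1.05) were added. Without the low-count filter 2 orthologues passed with the IAP ASO (1 with it). *MEG3* in KO against WT with shMBD6 lost its call without the filter (log2 -1.26), with ERCC scaling (-0.95), with the 6 libraries compared alone (-1.26) and without 4 of the single libraries. The cause was not tested. Same-numbered K-562 libraries did not deviate together (r from -0.03 to 0.02), so the numbers do not pair them, and the replicate block gave 4, 6, 4, 3 and 4 imprinted genes, as without it. Scaled to ERCC, the targeted gene *MBD6* turned from -1.12 to 0.02 with the hairpin in WT. Low counts limit *MEG3*, *MEST*, *PEG10* and *PEG3*.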
